A study of Mus musculus with 6 samples.

Results

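The autophagy machinery genes are 32 genes that build, extend and load the autophagosome. They were chosen by name from the pathway and not by their values, though with earlier results of these data known. Each was read by the probe set that the probe table assigns to its symbol alone and that was brightest by its mean over the arrays. All 32 had such a probe set above the filter on dim signals, which kept probe sets with a mean at or above the median (an intensity of 143), so they are 32 of the 10824 genes tested. The cells were LSK cells, the lineage-negative, Sca-1-positive and c-Kit-positive fraction that holds blood stem cells and early progenitors, from the bone marrow of 3 adult mice of mixed 129-B6 background (278, 279 and 281). Every mouse carried an Erg knockdown allele over a wild-type allele (Ergkd/+), an Mx1Cre transgene, whose promoter responds to interferon, and a reporter (Rosa26-Stop-YFP) that makes yellow fluorescent protein (YFP) once Cre has removed its stop. YFP-negative cells are labelled Erg-knockdown, with about 40% less Erg, and YFP-positive cells of the same animal are labelled Erg-restored, at the wild-type level. There are 3 arrays of each group, 1 per mouse, and both groups carry the transgene and the reporter, so Erg dose as labelled, Cre action, the reporter and the kind of cell that Cre spared cannot be told apart.

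Autophagy wraps cytoplasm in a double membrane and delivers it to the lysosome. The ULK1 kinase complex starts the process, a class III phosphatidylinositol 3-kinase complex marks the growing membrane, and a ubiquitin-like conjugation system fixes LC3 and GABARAP proteins to it, where receptor proteins attach cargo. In mouse blood stem cells, loss of Atg7 or Rb1cc1 is known to impair stem cell maintenance.

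The labels and cells were checked over the whole array first. Erg, the gene whose dose the labels state, read 2970, 2754 and 2706 in the knockdown-labelled cells of mice 278, 279 and 281 at its brighter probe set, against 2731, 2901 and 2659 in the restored-labelled cells, a log2 difference of 0.024 ± 0.11 (SE), and its dimmer probe set differed by -0.11 ± 0.11 (SE). Their 95% intervals allow reductions of at most 17.7% and 25.0%, so the libraries are named by their labels only, as knockdown-labelled and restored-labelled. Where these probe sets lie relative to the knockdown allele was not analysed here. Mean intensity per array lay between 1034 and 1075 and the median between 135 and 157, and 3 arrays a group limit the precision. The restored-labelled array of mouse 279 stood apart from the others, so members that rest on it are also given from a 5-array fit, which leaves it out and drops the pairing by mouse. Of 11 genes of the LSK gate and of stem cells, 9 had a named probe set and all 9 lay above the filter, with a summed intensity of 44370 to 47092 in the knockdown-labelled cells and 42555 to 42875 in the restored-labelled cells. Of 8 B and plasma cell genes 7 were named and 3 were above the filter, with sums of 11491 to 14600 in the knockdown-labelled cells and 8839 to 9964 in the restored-labelled cells, while the defining B cell gene Pax5 read 0 to 32.5 over the arrays. The plasma cell genes Jchain (0.59) and Sdc1 (0.94) were higher in every mouse, and so was Cd79a below the filter (0.54), while Cd79b was lower in every mouse (-0.11). The sums of both lists did not overlap between the groups. Neither did Ulk2, Atg4c, Uvrag and Ambra1 below, which are 12.5% of the members, against 15.2% of all genes without overlap. Sums of the mature neutrophil list (7 of 9 named, 24077 to 48751 in the knockdown-labelled and 16555 to 43698 in the restored-labelled cells) overlapped. So did those of the T and NK cell list (6 of 8 named, 8696 to 10126 in the knockdown-labelled and 9304 to 10399 in the restored-labelled cells), the macrophage and monocyte list (7 of 8 named, 3156 to 5070 in the knockdown-labelled and 4412 to 5987 in the restored-labelled cells), the erythroid list (5 of 7 named, 1093 to 4316 in the knockdown-labelled and 1307 to 3543 in the restored-labelled cells) and the megakaryocyte list (6 of 8 named, 8029 to 9169 in the knockdown-labelled and 8679 to 10818 in the restored-labelled cells). Nkg7 (8022 to 9524 over the arrays) made up most of the T and NK cell sums, and only 3 genes of that list lay above the filter. Of these, Cd8a (0.055) and Cd3e (0.86) were higher and Nkg7 (-0.086) lower. Cd3e differed by 0.86, 1.87 and -0.16 in mice 278, 279 and 281. Within the overlapping lists single genes did separate the groups. Of the 6 megakaryocyte genes tested, Treml1 (-0.73), Gp1bb (-0.61) and Itga2b (-0.50) were lower in the knockdown-labelled cells without overlap. The share of all genes lower in this way was 5.08%. Pf4 (-0.21) and Gp9 (-0.083) were lower with overlap, while Ppbp was higher (0.39), with 0.51, 0.75 and -0.087 in mice 278, 279 and 281. All 5 macrophage genes tested had a difference below 0, with C1qb (-1.39) and Csf1r (-0.40) lower in every mouse, as were C1qa and C1qc below the filter. None of these markers passed an adjusted p of 0.05 in limma, and the part of such cells in the differences of the autophagy genes was not tested. In sorted bulk cells, fewer cells of a type and less RNA per cell cannot be told apart.

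Across these roles no gene passed the test for a difference between the labelled groups after correction over all genes. The adjusted p of the 32 members lay between 0.771 and 0.997 (limma with Benjamini-Hochberg adjustment), and 0% of all genes passed an adjusted p of 0.05. Each difference is the knockdown-labelled value minus that of the restored-labelled cells of the same mouse, in log2 units after 16 was added to the intensity. It is given with its standard error (SE) from a fit with mouse as a block, and the 32 differences ran from -0.31 (Atg16l1) to 0.29 (Ulk2). Of the 32 members 14 were higher and 18 lower, with a median of -0.011, against -0.00015 over all genes tested. Differences of less than 0.1 in size were seen for 20 members. For 25 members the 95% interval of the difference lay within 1.5-fold in either direction, while for Rb1cc1, Atg14, Atg2b, Wipi1, Atg16l1, Atg4b and Tfeb it reached further. At unadjusted p below 0.05 (limma) there were 3 members, Ulk2 and Atg4c on the higher side and Atg9a on the lower, which is 9.38% of the members against 5.84% of all genes (3.96% higher and 1.88% lower). Which members stood there changed with the mice: Atg16l1 alone without mouse 278, Ulk2 and Atg9a without mouse 279, and Ambra1 alone without mouse 281. It also changed with scaling, from 2 higher and 1 lower as deposited to 1 higher and 3 lower after quantile normalization and 0 higher and 3 lower with centred arrays (each set to its own median). Centring lowers every gene by the same amount and puts the median of all genes at -0.11, so the centred values below are to be read against -0.11.

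**Figure D1:**
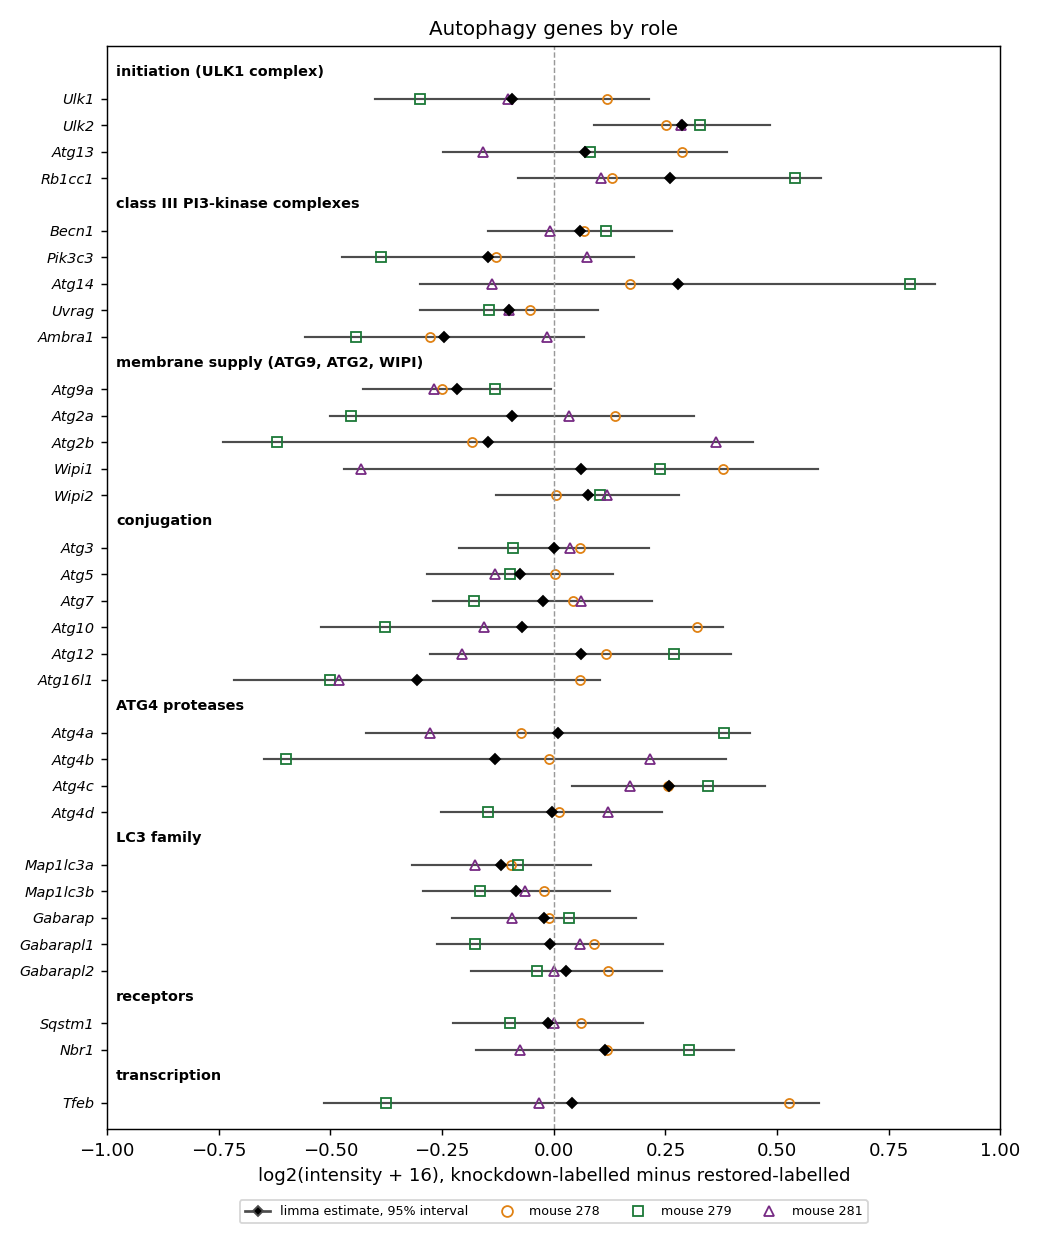
Log2 difference of each autophagy gene between knockdown-labelled and restored-labelled cells (horizontal axis, 16 added to each intensity; positive is higher in knockdown-labelled cells), in the order of the roles. Diamonds and lines are the limma estimate with its 95% interval and open symbols the 3 mice. The intervals of Ulk2, Atg4c and Atg9a leave out 0 before correction.

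Signs and overlap of the single arrays were also counted. The difference had 1 sign in all 3 mice for 9 members (28.1%), against 32.2% of all genes. The 4 higher ones were Ulk2, Rb1cc1, Wipi2 and Atg4c, where 19.8% of all genes were higher in this way. The 5 lower ones were Uvrag, Ambra1, Atg9a, Map1lc3a and Map1lc3b, where 12.4% of all genes were lower. The groups did not overlap for 4 members (12.5%), Ulk2 and Atg4c higher and Uvrag and Ambra1 lower, against 15.2% of all genes (10.1% higher and 5.08% lower). An exact two-sided sign-flip test over 3 mice cannot go below p = 0.25, which is its value for each of the 9 members with a single sign. The members thus stood near the share of all genes in each of these counts.

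The promoter stretches of the 3 members at unadjusted p below 0.05 are shown beside that of Atg3, the only member of 26 found in the promoter table whose stretch held both the ETS and the E-box motif searched. Each is the 250 bases before a start listed for the gene in RefSeq on GRCm38.p6, read 5′ to 3′ along the gene. For Ulk2 and Atg4c that start lies inside the annotated gene, which reaches to chr11:61855334 and begins at chr4:99189159. The Ulk2 stretch thus lies mostly, and the Atg4c stretch wholly, within the gene. Capitals mark CCGGAAG (a core of the sites of ETS factors, the family of ERG) and CACGTG (the E-box, the core of sites bound by TFEB), each searched on both strands, together with the forkhead motif GTAAACA, which none of the 4 stretches holds. The Ulk2 stretch is chr11:61855093-61855342 on the minus strand, the Atg4c stretch chr4:99193684-99193933 on the plus strand (the upstream one of 2 listed), the Atg9a stretch chr1:75192011-75192260 on the minus strand and the Atg3 stretch chr16:45158579-45158828 on the plus strand.
Ulk2: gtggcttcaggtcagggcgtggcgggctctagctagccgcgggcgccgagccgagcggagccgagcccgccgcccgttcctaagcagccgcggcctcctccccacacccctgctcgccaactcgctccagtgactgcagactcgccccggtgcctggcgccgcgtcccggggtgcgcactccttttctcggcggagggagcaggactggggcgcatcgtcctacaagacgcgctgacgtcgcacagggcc
Atg4c: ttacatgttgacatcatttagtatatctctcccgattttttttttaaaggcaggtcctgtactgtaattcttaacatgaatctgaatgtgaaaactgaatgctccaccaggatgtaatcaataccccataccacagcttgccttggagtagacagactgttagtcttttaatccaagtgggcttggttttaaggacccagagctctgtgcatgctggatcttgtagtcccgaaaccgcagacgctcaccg
Atg9a: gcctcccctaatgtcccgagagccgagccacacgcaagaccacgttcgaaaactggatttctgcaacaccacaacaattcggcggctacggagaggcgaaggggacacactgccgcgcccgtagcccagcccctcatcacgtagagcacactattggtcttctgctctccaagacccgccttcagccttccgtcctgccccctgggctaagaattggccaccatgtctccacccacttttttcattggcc
Atg3: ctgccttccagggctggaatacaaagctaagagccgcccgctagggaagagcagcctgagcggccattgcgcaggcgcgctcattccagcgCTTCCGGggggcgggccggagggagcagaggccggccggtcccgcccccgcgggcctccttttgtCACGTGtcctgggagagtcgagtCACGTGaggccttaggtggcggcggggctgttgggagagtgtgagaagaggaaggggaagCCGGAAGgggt
The Ulk2, Atg4c and Atg9a stretches hold none of these motifs, and the Atg3 stretch holds 2 ETS and 2 E-box matches that do not overlap. Over the 26 members in the table the ETS motif stood in 2 (Atg3 and Gabarapl2, 7.69%), against 6.91% of 32851 promoter stretches in all, and the E-box in 3 (Atg3, Atg5 and Atg7, 11.5%), against 6.02%. The forkhead motif stood in 0 of 26, against 3.17%. A member was counted if any of its listed stretches held the motif, while the shares over all count single stretches, so the 2 measures differ. Atg3, which encodes the enzyme that passes LC3 to the membrane lipid, read 3926, 3902 and 3870 in the knockdown-labelled cells of mice 278, 279 and 281, against 3769, 4156 and 3773 in the restored-labelled cells, a difference of 0.0015 ± 0.076 (SE).

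Among the initiation genes, Ulk2 had the smallest unadjusted p of all members. Ulk2 encodes a kinase that starts autophagosome formation together with or in place of ULK1. It read 1817, 1950 and 1982 in the knockdown-labelled cells of mice 278, 279 and 281, against 1525, 1550 and 1624 in the restored-labelled cells. All 3 knockdown-labelled arrays lay above all 3 restored-labelled ones, with means of 1916 ± 87.4 and 1566 ± 51.5 (SD, n = 3 arrays each). The difference was 0.29 ± 0.071 (SE; 95% interval 0.09 to 0.48; 1.22-fold), with an unadjusted p of 0.0155 and an adjusted p of 0.771 in limma. It was 0.18 with arrays centred on the median and 0.28 in the 5-array fit. The other 3 probe sets of Ulk2 above the filter gave 0.18, 0.20 and -0.10, and as the mean over its probe sets the difference of Ulk2 was 0.14.

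The other genes of the ULK1 complex showed no such separation of the groups. Ulk1, the main initiating kinase, read 1803, 1808 and 1654 in the knockdown-labelled cells, against 1658, 2228 and 1776 in the restored-labelled cells, so that the groups overlapped, and its difference was -0.093 ± 0.11 (SE). Rb1cc1, which encodes the scaffold FIP200, read 2170, 2010 and 2309 against 1980, 1377 and 2144 in the restored-labelled cells. Its difference of 0.26 ± 0.12 (SE) came mostly from mouse 279 (0.54, against 0.13 and 0.11 in mice 278 and 281), and it was 0.067 in the 5-array fit. Atg13, the adaptor of the complex, differed by 0.070 ± 0.11 (SE). The median of the 4 initiation genes was 0.16, and 0.058 with centred arrays. Differences between role groups were not tested.

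In the class III phosphatidylinositol 3-kinase complexes 2 genes were higher and 3 lower, with a median of -0.10. Ambra1, a scaffold that binds BECN1 and promotes initiation, had the smallest p of the group. It read 846, 857 and 921 in the knockdown-labelled cells, against 1028, 1170 and 931 in the restored-labelled cells, a difference of -0.25 ± 0.11 (SE; 95% interval -0.56 to 0.07; unadjusted p = 0.0945 in limma). The groups did not overlap, but in mouse 281 the arrays were 0.015 apart, and the difference was -0.16 in the 5-array fit. Uvrag, whose product is the subunit of the complex that acts later on endosomes, read 2468, 2466 and 2321 against 2562, 2729 and 2488 in the restored-labelled cells. These groups did not overlap either, with a difference of -0.10 ± 0.071 (SE), which was -0.062 in the 5-array fit.

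Atg14 and the catalytic subunit gene Pik3c3 differed by opposite signs. Atg14, which directs the complex to sites of autophagosome formation, read 1812, 1784 and 1497 in the knockdown-labelled cells, against 1608, 1019 and 1648 in the restored-labelled cells. The restored-labelled array of mouse 279 was the low one, and the single mice gave 0.17, 0.80 and -0.14, for a difference of 0.28 ± 0.21 (SE) that was 0.055 in the 5-array fit. Pik3c3 differed by -0.15 ± 0.12 (SE), and by -0.042 in the 5-array fit. Becn1, the regulatory core subunit, was even over the arrays: 5512, 5716 and 5285 in the knockdown-labelled cells, against 5262, 5269 and 5313 in the restored-labelled cells. Its difference was 0.059 ± 0.074 (SE) at this probe set and -0.021 at the next brightest.

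Of the genes that bring membrane to the growing autophagosome, Atg9a was lower in every mouse. Atg9a encodes a lipid scramblase carried on the small vesicles that seed the autophagosome. It read 554, 856 and 649 in the knockdown-labelled cells of mice 278, 279 and 281, against 662, 940 and 784 in the restored-labelled cells. The groups overlapped because mouse 279 was high in both, while within each mouse the knockdown-labelled array was the lower one (-0.25, -0.13 and -0.27). The difference was -0.22 ± 0.075 (SE; 95% interval -0.43 to -0.0072), with an unadjusted p of 0.0454 and an adjusted p of 0.771 in limma. With no replicate block the unadjusted p was 0.310, with centred arrays the difference was -0.32, and in the 5-array fit it was -0.092.

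The lipid transfer genes Atg2a and Atg2b differed by -0.094 ± 0.15 and -0.15 ± 0.21 (SE) at their brightest probe sets. The other probe set of Atg2b above the filter went the other way: it read 522, 485 and 519 in the knockdown-labelled cells, against 336, 370 and 423 in the restored-labelled cells. Its groups did not overlap, with a difference of 0.43 ± 0.12 (SE; unadjusted p = 0.0244 and adjusted p = 0.849 in limma over every named probe set), so no direction is given for Atg2b. Wipi2, which recruits the conjugation machinery to the membrane, differed by 0.076 ± 0.073 (SE), and Wipi1 by 0.062 ± 0.19 (SE).

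**Figure D2:**
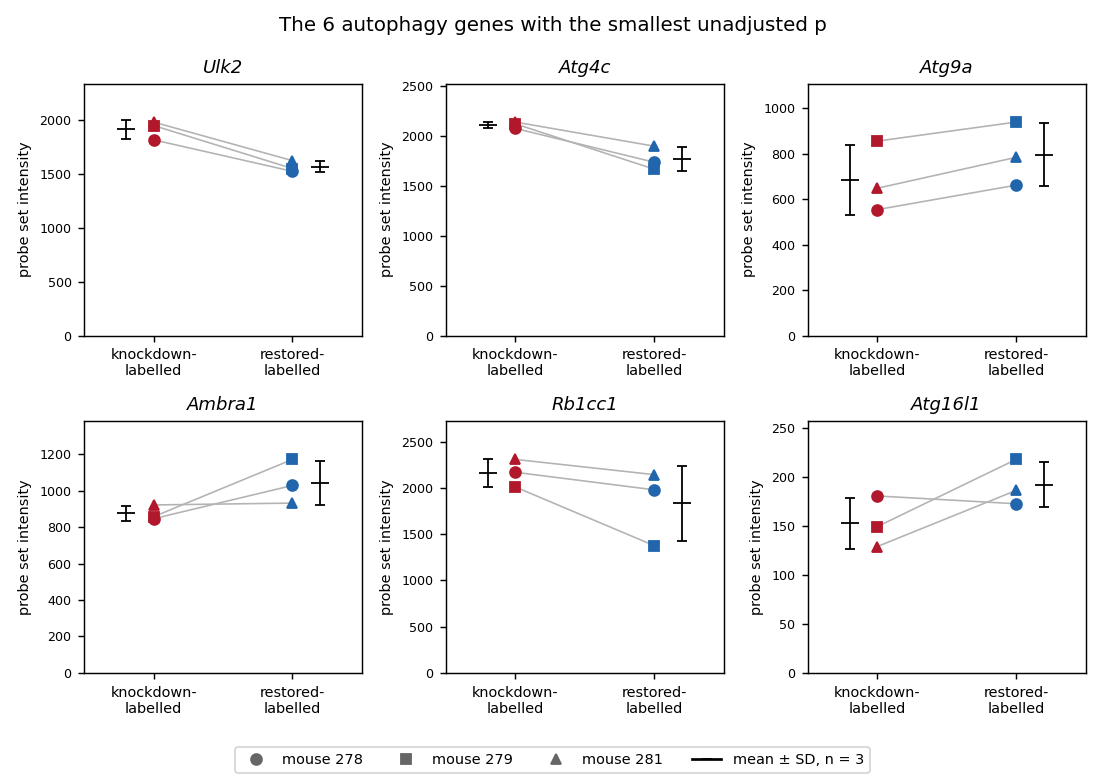
Probe set intensity (vertical axis, from 0) of the 6 autophagy genes with the smallest unadjusted p. Points are arrays, lines join the 2 arrays of a mouse and bars are mean ± SD of 3 arrays. For Ulk2 and Atg4c all knockdown-labelled arrays lie above the restored-labelled ones, and for Atg9a each mouse has its own level, with the knockdown-labelled array the lower one.

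The conjugation genes, which carry LC3 to the membrane, lay near 0 apart from Atg16l1. The differences of Atg3, Atg5, Atg7, Atg10 and Atg12 lay between -0.075 and 0.060, and the median of the 6 conjugation genes was -0.048. Atg7, the activating enzyme of both conjugation arms, read 1286, 1381 and 1317 in the knockdown-labelled cells, against 1248, 1565 and 1261 in the restored-labelled cells. The restored-labelled array of mouse 279 was the highest, and the difference was -0.025 ± 0.088 (SE; 95% interval -0.27 to 0.22). Atg16l1, which positions the ATG12-ATG5 conjugate on the membrane, was the dimmest member. It read 181, 150 and 129 in the knockdown-labelled cells, against 173, 218 and 186 in the restored-labelled cells, close to the filter intensity of 143. It was lower in mice 279 and 281 (-0.50 and -0.48) but not in mouse 278 (0.059), and its difference was -0.31 ± 0.15 (SE; unadjusted p = 0.106 in limma), understated by the 16 added to each value. In the 5-array fit the difference of Atg16l1 was -0.22. A second probe set of Atg5, the protein to which ATG12 is attached, gave 0.23 and one of Atg7 gave 0.25, each higher in all 3 mice and opposite in sign to the brightest one.

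Among the ATG4 proteases, which trim LC3-family proteins before conjugation and free them again, Atg4c had the smallest p. It read 2074, 2120 and 2138 in the knockdown-labelled cells, against 1736, 1666 and 1897 in the restored-labelled cells. The groups did not overlap, with means of 2111 ± 33.0 and 1766 ± 118 (SD, n = 3 arrays each). The difference was 0.26 ± 0.078 (SE; 95% interval 0.04 to 0.47; 1.19-fold), with an unadjusted p of 0.0299 and an adjusted p of 0.771 in limma. It was 0.15 with centred arrays and 0.22 in the 5-array fit. Atg4b, the protease with the broadest action on LC3-family proteins, read 1384, 1440 and 1655 against 1394, 2192 and 1423 in the restored-labelled cells, a difference of -0.13 ± 0.19 (SE). In the 5-array fit Atg4b was at 0.079. Atg4a and Atg4d differed by 0.010 ± 0.15 and -0.0050 ± 0.088 (SE).

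The LC3 family, the proteins that are fixed to the autophagosome membrane, showed small differences between the labelled groups. All 5 differences lay between -0.12 and 0.028, with a median of -0.023 (-0.13 with centred arrays). Over their 95% intervals the lowest bound was -0.32 (Map1lc3a) and the highest 0.24 (Gabarapl1). Map1lc3a, one of the LC3 genes, read 817, 1119 and 853 in the knockdown-labelled cells, against 874, 1183 and 966 in the restored-labelled cells. Mouse 279 was high in both populations and the knockdown-labelled array was the lower one in each mouse, with a difference of -0.12 ± 0.072 (SE; adjusted p = 0.771 in limma). Map1lc3b, which encodes the LC3 form most used as an autophagosome marker, read 5463, 5736 and 5234 in the knockdown-labelled cells, against 5551, 6436 and 5474 in the restored-labelled cells. Its difference was -0.084 ± 0.075 (SE), and its other 3 probe sets above the filter gave -0.039, -0.014 and 0.021.

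With all arrays, the GABARAP genes of the family, which act mainly in later closure and fusion, lay closer to 0. This order depended on the restored-labelled array of mouse 279, which was the highest array for Map1lc3a, Map1lc3b and Gabarapl1. In the 5-array fit Map1lc3a, Gabarapl1 and Gabarapl2 changed sign, and Map1lc3a lay closer to 0 than Gabarapl1 and Gabarapl2. The family median in that fit was -0.010, with 2 genes higher and 3 lower. Gabarap read 5220, 5228 and 4950 in the knockdown-labelled cells, against 5255, 5102 and 5282 in the restored-labelled cells (-0.023 ± 0.074, SE). Gabarapl1 read 4300, 4159 and 4081 against 4042, 4699 and 3915 in the restored-labelled cells (-0.0089 ± 0.091, SE). Gabarapl2 read 1705, 1326 and 1638 against 1567, 1361 and 1638 in the restored-labelled cells (0.028 ± 0.077, SE). The groups overlapped for all of the 3 genes. A second probe set of Gabarapl2 was higher in all 3 mice, at 0.19.

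The receptor genes were read by Sqstm1 and Nbr1. Sqstm1 encodes p62, which binds ubiquitinated cargo and LC3 and is itself degraded by autophagy. It read 2409, 2712 and 2354 in the knockdown-labelled cells, against 2309, 2905 and 2352 in the restored-labelled cells, so the groups overlapped, with a difference of -0.012 ± 0.076 (SE; 95% interval -0.23 to 0.20). Its dimmer probe set read 271, 416 and 288 against 260, 262 and 263 in the restored-labelled cells, a difference of 0.27 that came mostly from mouse 279 (0.63). Nbr1, a receptor related to p62, read 4123, 3987 and 3785 against 3797, 3231 and 3991 in the restored-labelled cells (0.11 ± 0.10, SE), and the restored-labelled array of mouse 279 was the lowest, with a difference of 0.025 in the 5-array fit. Tfeb, the transcription factor that drives lysosome and autophagy genes, read 547, 544 and 451 in the knockdown-labelled cells, against 375, 711 and 462 in the restored-labelled cells. The restored-labelled arrays held both its lowest and its highest value, and the single mice gave 0.53, -0.38 and -0.032, for a difference of 0.040 ± 0.20 (SE). The highest value was that of mouse 279, and in the 5-array fit the difference of Tfeb was 0.29.

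**Figure D3:**
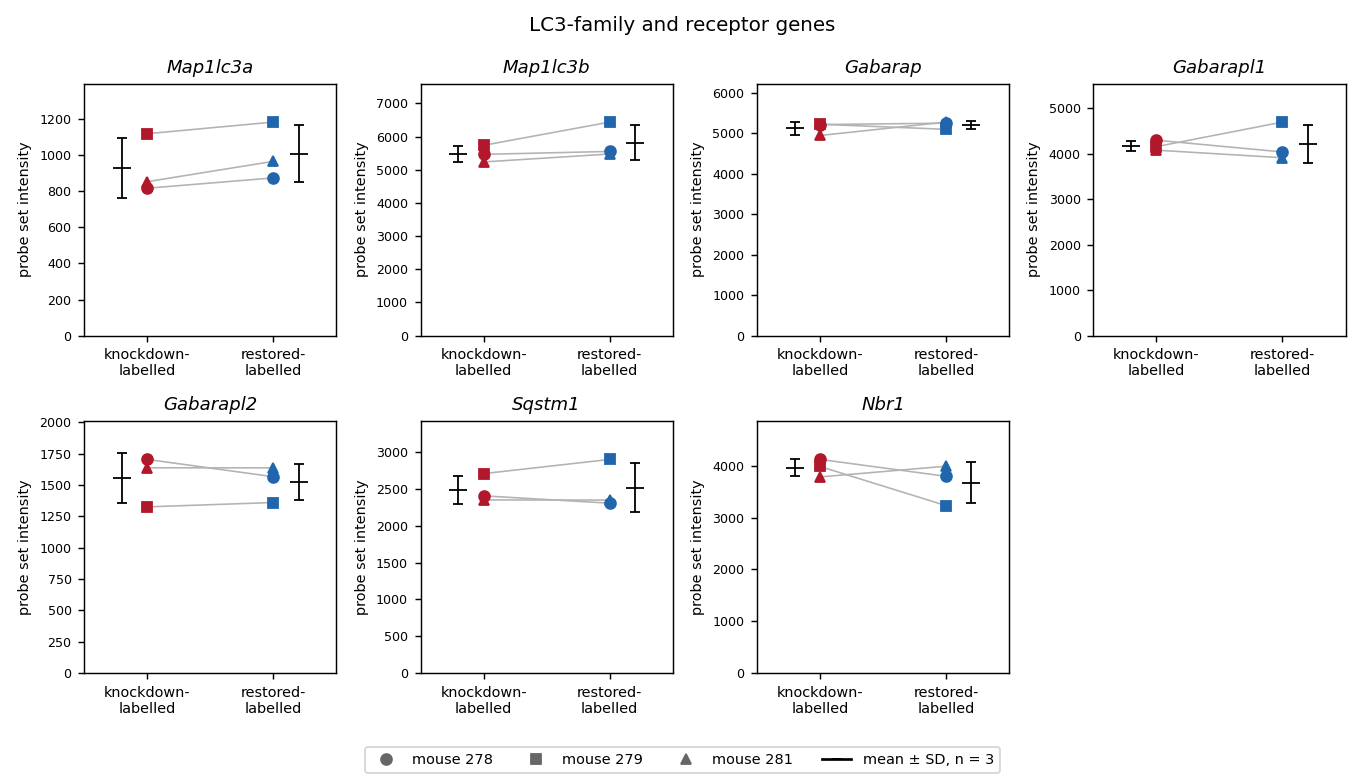
Probe set intensity (vertical axis, from 0) of the LC3-family and receptor genes. Points are arrays, lines join the 2 arrays of a mouse and bars are mean ± SD of 3 arrays. The groups overlap in each of the 7 genes.

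One array stood apart in these genes. The restored-labelled array of mouse 279 was the highest of the 6 for 19 members (59.4%, against 38.9% of all genes), while the other arrays were highest for 0 to 5 members. Its median distance above the mean of the 6 arrays was 0.14 over the members and 0.046 over all genes. On the other 5 arrays the median of the members lay between -0.044 and 0.024. It was the lowest array for 5 members (15.6%, against 24.7% of all genes), Rb1cc1, Atg14, Atg12, Atg4c and Nbr1. On this array the Gapdh and Actb control probe sets gave a log2 ratio of 3′ to 5′ signal of 0.71, against 0.47 to 0.54 on the others, and the part of RNA quality in these values was not tested. The mature neutrophil list had its lowest median deviation there (-1.17, against 1.48 on the knockdown-labelled array of the same mouse) and the megakaryocyte list its highest (0.29), and their part was not tested either. In the 5-array fit 13 members changed sign, 21 were higher and 11 lower, and the median of the members was 0.048.

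**Figure D4:**
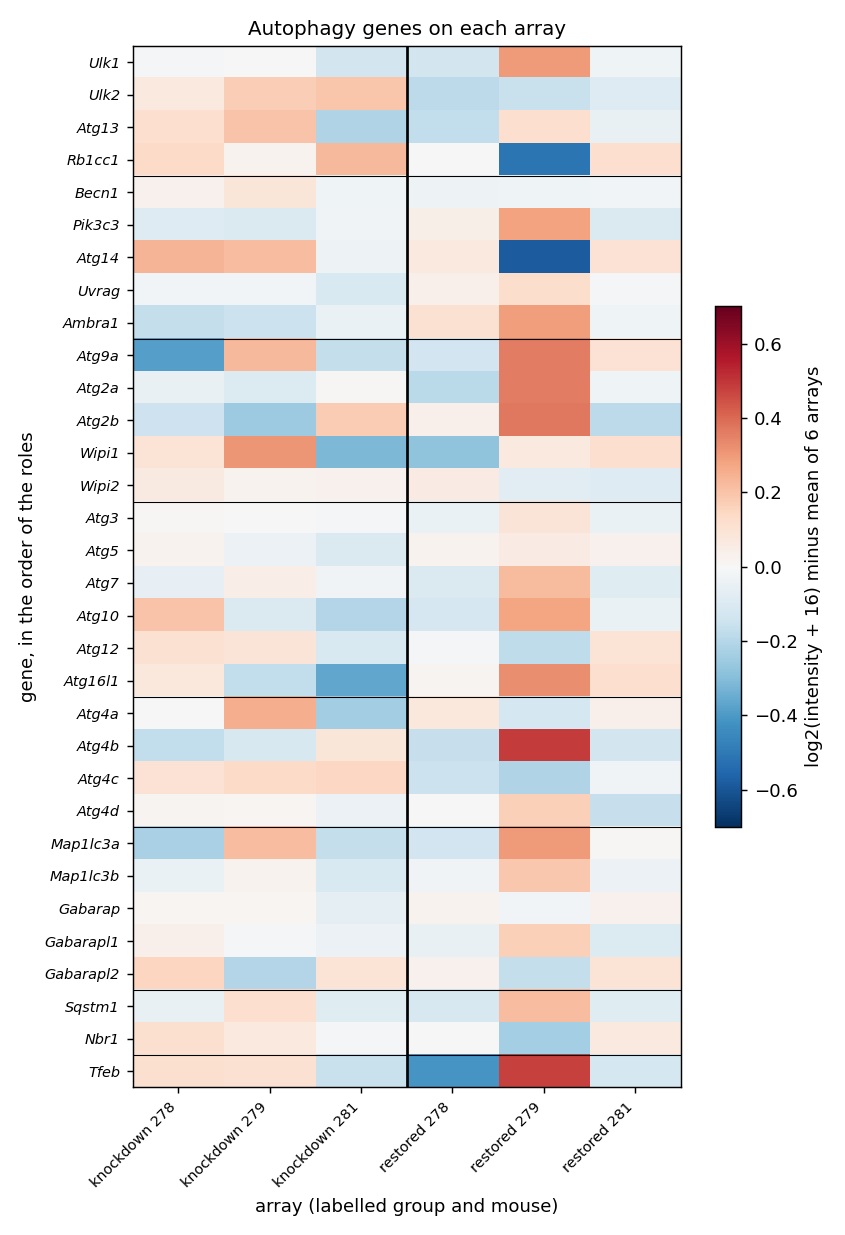
Each autophagy gene (rows, in the order of the roles) on each array (columns), as log2(intensity + 16) minus the mean of the 6 arrays; red is higher and blue lower. The restored 279 column holds the strongest colours, with 19 genes at their highest there and Rb1cc1 and Atg14 far below the other arrays.

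Probe sets of 1 gene did not always point the same way. The 32 members had 77 probe sets, 60 of them above the filter, and 18 members had more than 1. Of the 28 probe sets beside the brightest ones, 13 had the opposite sign and 5 lay more than 0.3 away. Beside those given above, Wipi2 had probe sets at -0.35 and -0.026, Wipi1 at 0.45, 0.35 and 0.092, Ulk1 at 0.079, Atg12 at 0.0072 and -0.090, Atg7 at 0.0068 and Gabarapl1 at 0.048. For Becn1, Wipi1, Atg5, Map1lc3a and Gabarapl1 the brightest probe set has a name ending in _s_at or _x_at, which Affymetrix gives to probe sets that may also match other transcripts.

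**Figure D5:**
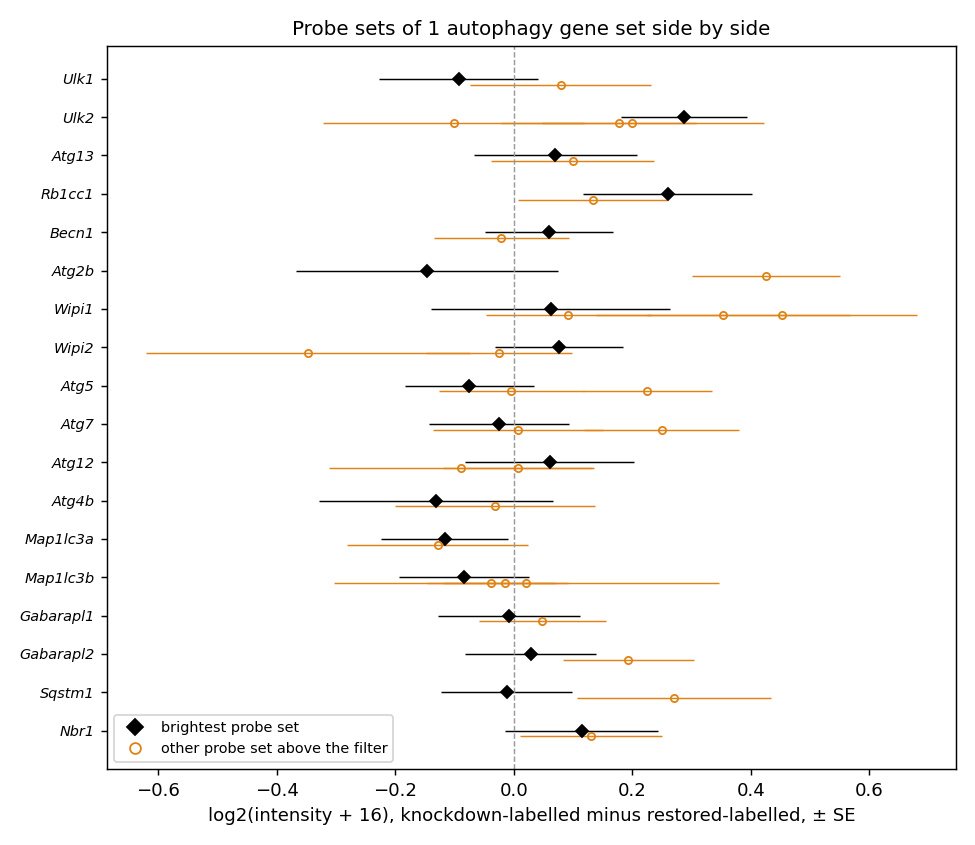
Log2 differences between knockdown-labelled and restored-labelled cells (positive is higher in knockdown-labelled cells, ± SE) of the 18 autophagy genes with more than 1 probe set above the filter, from a fit of every named probe set. Black diamonds are the brightest probe sets and open circles the others. Atg2b has its other probe set on the opposite side, at 0.43.

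Around the machinery, 97 other genes of the pathway were listed and 90 tested. Of these, 4 (4.44%) were at unadjusted p below 0.05, against 5.84% of all genes, and none passed an adjusted p of 0.05 (limma). In the list of mTORC1, AMPK and TFEB control, which switches autophagy by nutrient and energy state, 19 of 33 genes were higher and 14 lower, with a median of 0.015, and with centred arrays the median was -0.092, where that of all genes was -0.11. Foxo1, a transcription factor that can induce autophagy genes, was at 0.28 ± 0.081 (SE; unadjusted p = 0.0274 in limma), and Sesn3, a FOXO target that restrains mTORC1, read 2506, 2596 and 2436 in the knockdown-labelled cells, against 2104, 2235 and 2234 in the restored-labelled cells. The groups of Sesn3 did not overlap (0.20 ± 0.074, SE; unadjusted p = 0.0569 in limma).

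Lysosome and v-ATPase genes, which encode the compartment where the cargo is degraded, were lower for 20 of 27 genes, against 5416 of 10824 over all genes. Their median was -0.059, against -0.00015 over all genes, and 9 of the 11 v-ATPase genes among them were lower. The median was -0.066 after quantile normalization, where that of all genes was -0.027, and -0.17 with centred arrays, where that of all genes was -0.11. In the 5-array fit 20 were lower, with a median of -0.020, and without mouse 281 only 14 were, with a median of -0.0023. Npc1, the lysosomal cholesterol transporter gene, was at 0.21 ± 0.072 and the cathepsin gene Ctsz at -0.22 ± 0.079 (SE), with unadjusted p of 0.0417 and 0.0484 (limma) and groups that did not overlap. Of 12 other receptor genes 9 were higher, against 5408 of 10824 over all genes. Their median was 0.098 (-0.0091 with centred arrays, where that of all genes was -0.11). The smallest p among them were those of the mitophagy receptor gene Fundc1 (0.29 ± 0.12, SE) and Calcoco1 (0.15 ± 0.074, SE). Fundc1 differed by 0.57 in mouse 279, against 0.22 and 0.081 in mice 278 and 281. Of 18 other machinery genes 8 were higher and 10 lower (median -0.021), with the smallest p for Atg16l2, a homologue of Atg16l1, at -0.30 ± 0.10 and Wdr45, a WIPI-family gene, at -0.17 ± 0.085 (SE), of which mouse 279 gave -0.31 and mice 278 and 281 gave -0.10 and -0.11.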

How the data were processed

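Amplified and biotin-labelled RNA of the sorted LSK cells (NuGEN Ovation chemistry, per the labels' protocols) was read on Affymetrix mouse arrays. The deposited values are linear probe set intensities, 1 column per array. The summary, background and scaling methods are not given in the sources used here. Of 45101 probe sets, 64 controls were left out, 34945 are named by 1 gene symbol, 932 by several and 9160 are unnamed here, in an annotation that can be old. Gene identifiers of 34741 matched the RefSeq gene table of GRCm38.p6. Values were taken to log2(intensity + 16), so that differences of dim genes are understated. Probe sets with a mean at or above the median stayed in (22519), and the brightest named one stood for each gene, which left 10824 genes.

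All genes were fitted in limma (version 3.58.1, lmFit with eBayes, under R 4.3.3) with mouse as a fixed block, and adjusted by Benjamini-Hochberg with a threshold of 0.05. It was tested on simulated data with known changes of 1.5-fold or more, larger than any difference of the members at their brightest probe sets. How often differences of the members' size would be found was not tested. With the block 2 residual degrees of freedom remain. The pairing comes from the labels, which put both populations in the same mouse. Correlations of deviations from the group means were 0.44, -0.17 and -0.29 for mice 278, 279 and 281. They were 0.41 for knockdown-labelled cells of mouse 281 with restored-labelled cells of mouse 279, and 0.34 for knockdown-labelled 279 with restored-labelled 281. The remaining pairs across mice lay between -0.27 and -0.060.

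Members, roles, pathway lists and marker lists were chosen with earlier results of these data known. Values per array are given, by rule, for members at unadjusted p below 0.05, for the smallest p of each role group and for LC3-family and receptor genes. Those of Atg3, Ulk1, Rb1cc1, Uvrag, Atg14, Becn1, Atg7, Atg4b and Sesn3 and of second probe sets were chosen after their values were seen. Alternatives were no block, quantile normalization, centring, other filters, other ways to join probe sets, a robust eBayes with a trend, weights per array, added values of 1 and 64, leaving out each mouse, and the 5-array fit.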

Additional observations from a re-analysis of the deposited data

How the results depend on the processing

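No autophagy gene passed an adjusted p of 0.05 in limma under any of 15 alternatives, where the adjusted p of the members was 0.520 or more over the 14 that give 1 value per gene. The number at unadjusted p below 0.05 ran from 1 to 4 over the 15, against 3 as reported, and was 1 with no filter and 1 with the mean over probe sets. It was 2 with no replicate block, and the paired and unpaired fits share every difference. It ran from 1 to 2 when 1 mouse was left out. Over all genes that number was 632 as reported, 971 with centred arrays, 1083 with no filter and 258 without mouse 278. With each probe set on its own the counts are of probe sets and not of genes, 3 of the members and 1135 in all. In 11 members the sign held in every alternative run for them: Ulk2, Atg4c, Rb1cc1, Atg14, Nbr1, Ambra1, Atg16l1, Atg9a, Map1lc3b, Pik3c3 and Uvrag. Atg16l1, Atg9a and others of the dimmest members could not be fitted with a filter at the upper 30%, which kept 25 members. The 16 added to each value and the small number of arrays limit what dim genes can show.

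Centring on the median gave medians of -0.12 for all members (-0.11 for all genes), -0.21 for the PI3-kinase complexes, -0.20 for membrane supply, -0.10 for the ATG4 proteases, -0.13 for the LC3 family and -0.056 for the receptors. The membrane supply median (-0.094 as reported) was 0.076 with the filter at the upper 30%, 0.062 with each probe set on its own, 0.055 with 5 arrays and -0.16 to 0.062 without 1 mouse. The ATG4 median (0.0027) was 0.078 with 5 arrays and 0.019 to 0.085 without 1 mouse, and that of the PI3-kinase complexes -0.12 to -0.027 without 1 mouse.

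Members whose difference changed sign, none of them past a threshold before or after, stood as follows. With centred arrays they were Tfeb (-0.067), Gabarapl2 (-0.079), Atg13 (-0.037), Wipi2 (-0.031), Atg4a (-0.096), Wipi1 (-0.045), Atg3 (-0.11), Atg12 (-0.047), Becn1 (-0.048). After quantile normalization they were Tfeb (-0.047), Atg13 (-0.0077), Atg4a (-0.048), Wipi1 (-0.024), Atg3 (-0.0042). As the mean over probe sets they were Atg12 (-0.0076), Atg2b (0.14), Atg5 (0.049), Atg7 (0.077), Gabarapl1 (0.020), Sqstm1 (0.13), Wipi2 (-0.099). With array weights they were Gabarapl1 (0.011), Atg4d (0.025), Atg4a (-0.059), Wipi1 (-0.040). With 5 arrays they were Gabarapl1 (0.071), Atg10 (0.049), Gabarapl2 (-0.050), Atg4b (0.079), Atg2b (8.8e-05), Atg2a (0.062), Atg7 (0.080), Atg4d (0.076), Atg4a (-0.050), Map1lc3a (0.0028), Ulk1 (0.031), Sqstm1 (0.093), Atg12 (-0.014). Without 1 mouse, 17 members changed sign, with ranges of -0.27 to 0.082 for Atg10, -0.044 to 0.19 for Atg12, -0.039 to 0.18 for Atg13, -0.21 to 0.086 for Atg2a, -0.40 to 0.090 for Atg2b, -0.027 to 0.047 for Atg3, -0.17 to 0.15 for Atg4a, -0.31 to 0.10 for Atg4b, -0.068 to 0.067 for Atg4d, -0.068 to 0.052 for Atg7, -0.051 to 0.013 for Gabarap, -0.058 to 0.074 for Gabarapl1, -0.018 to 0.061 for Gabarapl2, -0.049 to 0.031 for Sqstm1, -0.20 to 0.25 for Tfeb, -0.20 to 0.0093 for Ulk1, -0.097 to 0.31 for Wipi1. Centring subtracts the same amount from every gene, so the changes there are that of all genes. The cause of the others was not tested.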
